A study of Mus musculus with 20 samples.

Results

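The experiment asked which transcripts of DN3 thymocytes differed about 2 days after Zmiz1 was deleted with a tamoxifen-activated Cre. It comprised 8 of the 20 RNA sequencing libraries of the series, chosen by their labels: DeltaTamCre 1 to 4 and TamCre 1 to 4, each library from 1 C57BL/6 mouse. DeltaTamCre mice carried Rosa26CreERT2 and floxed Zmiz1 on both alleles (Zmiz1 f/f), and TamCre mice carried Rosa26CreERT2 without the floxed gene. Both groups received tamoxifen by intraperitoneal injection (0.2 mg per g of body weight), and cells were sorted 43 to 44 h later, so activated CreERT2 and tamoxifen are common to both groups. No vehicle-treated group is among these libraries, and neither age nor sex is given in the labels. Rosa26 is active in nearly all cell types, so deletion was not restricted to thymocytes. The labels do not name the floxed exons. A pair of other models in the series is used below for comparison only. DeltaMxCre and MxCre (3 mice each) carried interferon-inducible MxCre with or without Zmiz1 f/f, received 5 injections of 40 micrograms of pI-pC, 1 every 2 days, and were sorted 8 weeks later. AntiNRR and IgG (3 libraries each, number of mice not given) came from mice sorted 24 h after 10 mg per kg of a Notch1 antibody that binds its negative regulatory region, or of control antibody. The tamoxifen libraries were made with a TruSeq mRNA v2 kit (100 ng of RNA) and those of the other models with a SMARTer kit (50 ng). In comparisons between models, kit and model therefore cannot be told apart.

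DN3 is the CD4- CD8- thymocyte stage at which the T cell receptor beta locus is rearranged and the pre-T cell receptor is tested (beta-selection). Notch1, cleaved after contact with its ligand, moves to the nucleus and there joins the DNA-binding protein RBPJ and a Mastermind-like coactivator to switch on targets such as Dtx1, Hes1, Ptcra, Il2ra and Myc. ZMIZ1 belongs to the PIAS-like family of transcriptional coregulators, related to SUMO ligases, and is known to bind Notch1 and to act with it at some of its targets, Myc among them. MYC in turn is known to drive genes of ribosome assembly, ribosomal proteins and metabolism.

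Total expected counts were 71548171 to 101425251 in TamCre and 52615332 to 72477238 in DeltaTamCre. Levels are CPM, the share of a library's counts scaled to a common size, and differences are log2 fold changes of DeltaTamCre over TamCre ± SE. An adjusted p, unless another tool is named, is from edgeR's quasi-likelihood test, adjusted by Benjamini-Hochberg over 13460 genes. The words called, passed, rose and fell refer to that test unless another tool is named. A gene that did not pass by edgeR can have passed by another tool. The label gives the sort as CD44+ CD25-, the reverse of the textbook DN3 gate. In the data, Il2ra (CD25) ranged from 2206 to 3064 CPM, Ptcra (the pre-T cell receptor alpha chain) from 314 to 371 CPM and Cd44 from 3.00 to 4.95 CPM, and high CD25 with low CD44 is the textbook DN3 pattern. TamCre 1 stood apart from the other 7 libraries. It lay at -53.1 on the first principal component (31.5% of variance) against -14.0 to 29.4 for the others, and was the highest of the 8 libraries in 3214 genes (23.9%). Its immediate-early transcripts, which cells induce within minutes of a stimulus or of handling, summed to 2031 CPM against 539 to 579 CPM in TamCre 2 to 4 and 640.4 to 763 CPM in DeltaTamCre. Fos, an AP-1 subunit, was at 226 CPM in TamCre 1, 0.285 to 0.899 CPM in TamCre 2 to 4 and 0.325 to 12.7 CPM in DeltaTamCre. The inducible heat-shock gene Hspa1a was at 143 CPM in TamCre 1, 0.991 to 7.28 CPM in TamCre 2 to 4 and 2.22 to 24.1 CPM in DeltaTamCre. Values without TamCre 1 are given beside each called gene and beside part of the other genes and lists. A gene or list shown without such a value can still depend on TamCre 1.

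**Figure D1:**
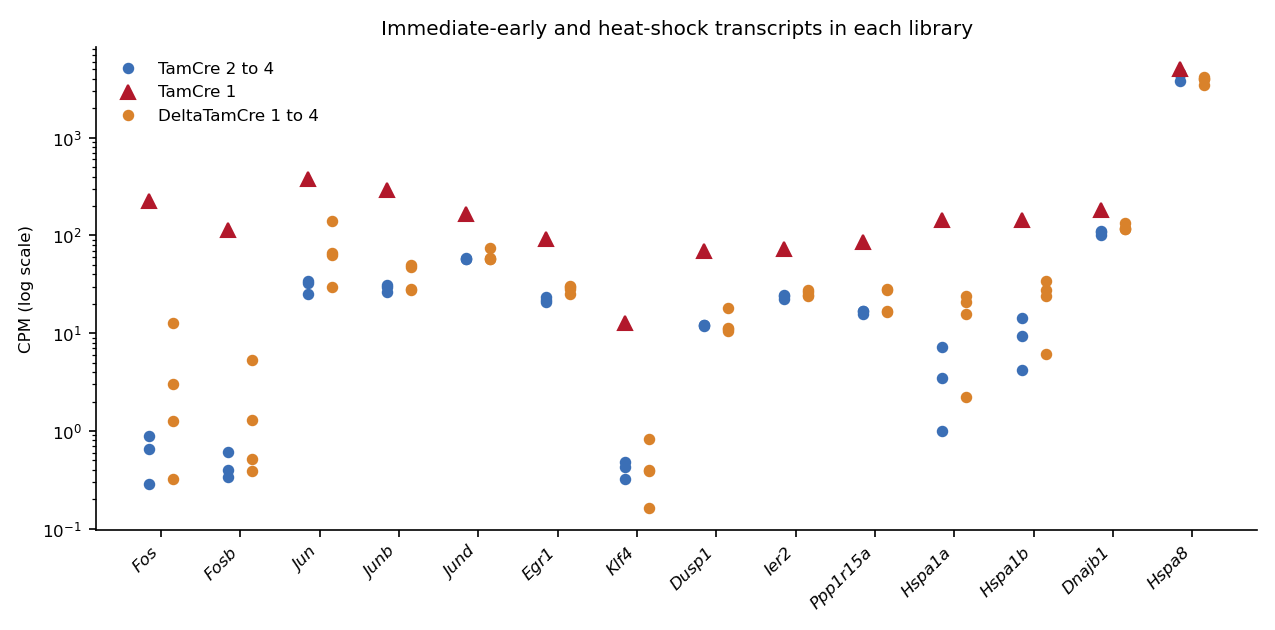
CPM (vertical axis, log scale) of 14 immediate-early and heat-shock genes (horizontal axis) in each library: the triangle is TamCre 1, blue points are TamCre 2 to 4 and orange points DeltaTamCre 1 to 4. The triangle is the highest point for every gene drawn, from Fos at 226 CPM to Hspa8 at 5042 CPM. The genes drawn are a selection. Over the whole lists, TamCre 1 was the highest of the 8 libraries for 22 of 29 tested immediate-early genes and 16 of 24 tested heat-shock genes.

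Zmiz1 itself (chr14:25457875-25666743, mm10), the targeted gene, was measured at 324, 293, 272 and 282 CPM in TamCre 1 to 4 and 184, 220.3, 169 and 172 CPM in DeltaTamCre 1 to 4. All DeltaTamCre libraries lay below all TamCre libraries, and transcript was still counted in each of them. Zmiz1 fell from 293 ± 22.4 to 187 ± 23.4 CPM (SD, 4 mice per group; log2 fold change -0.65 ± 0.10, adjusted p = 0.0405). Without TamCre 1 the fold change was -0.61 and the call was lost (adjusted p = 0.105). Of the 8 fits that each left out 1 library, that without DeltaTamCre 2 called Zmiz1 and the other 7 did not. Counts cover the whole gene, so transcript that lacks the floxed exons and transcript from undeleted cells cannot be told apart. The closest relative, Zmiz2, was at 342, 300.0, 270.4 and 295 CPM in TamCre 1 to 4 and 275, 291, 291 and 307 CPM in DeltaTamCre 1 to 4, and the groups overlapped (-0.053 ± 0.082, adjusted p = 0.791; 0.0023 without TamCre 1). Of 18 genes of the PIAS and SUMO family, including SUMO ligases, SUMO proteins and their proteases, Zmiz1 fell and the other 17 did not pass (median 0.0054, all genes 0.020). The SUMO protease gene Senp7 (0.26 ± 0.083, adjusted p = 0.184) and the modifier gene Sumo3 (-0.20 ± 0.071, adjusted p = 0.220) came next by p.

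Beyond Zmiz1, 11 genes passed the threshold of adjusted p under 0.05, so that 8 genes rose and 4 fell among 13460 tested (0.0892% called; 0.0594% higher and 0.0297% lower). At an unadjusted p under 0.05, 1082 genes were higher (8.04%) and 1071 lower (7.96%), and the libraries of the groups did not overlap for 10.6% of genes (4.84% above and 5.74% below). DESeq2 called 1.91% of genes higher and 1.85% lower, and limma voom with sample quality weights 4.96% and 3.99%. Without the weights voom called 6 genes higher and 3 lower. Counts of list members below are to be read against these shares of all genes. For all 12 called genes the 4 DeltaTamCre libraries lay clear of the 4 TamCre libraries, as the plot of their CPM shows. Without TamCre 1, 2 genes passed (0.0146% of 13653), Evl and Il31ra, and the adjusted p of the 12 ran from 0.0410 to 0.113 with no change of sign. In a fit of all 20 libraries of the series Zmiz1 alone of the 12 passed (adjusted p = 0.00263); Evl was at adjusted p = 0.0884, Jakmip1 at 0.102 and Il31ra at 0.923, the highest of the 12. Over the 8 fits that each left out 1 library, Evl was called in 6, Il31ra in 5, Jakmip1 in 4 and Pgam2 in 2, and each of the other 8 genes in at most 1. Evl and Il31ra lost the call without TamCre 3 or TamCre 4, and Il31ra also without DeltaTamCre 4.

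**Figure D2:**
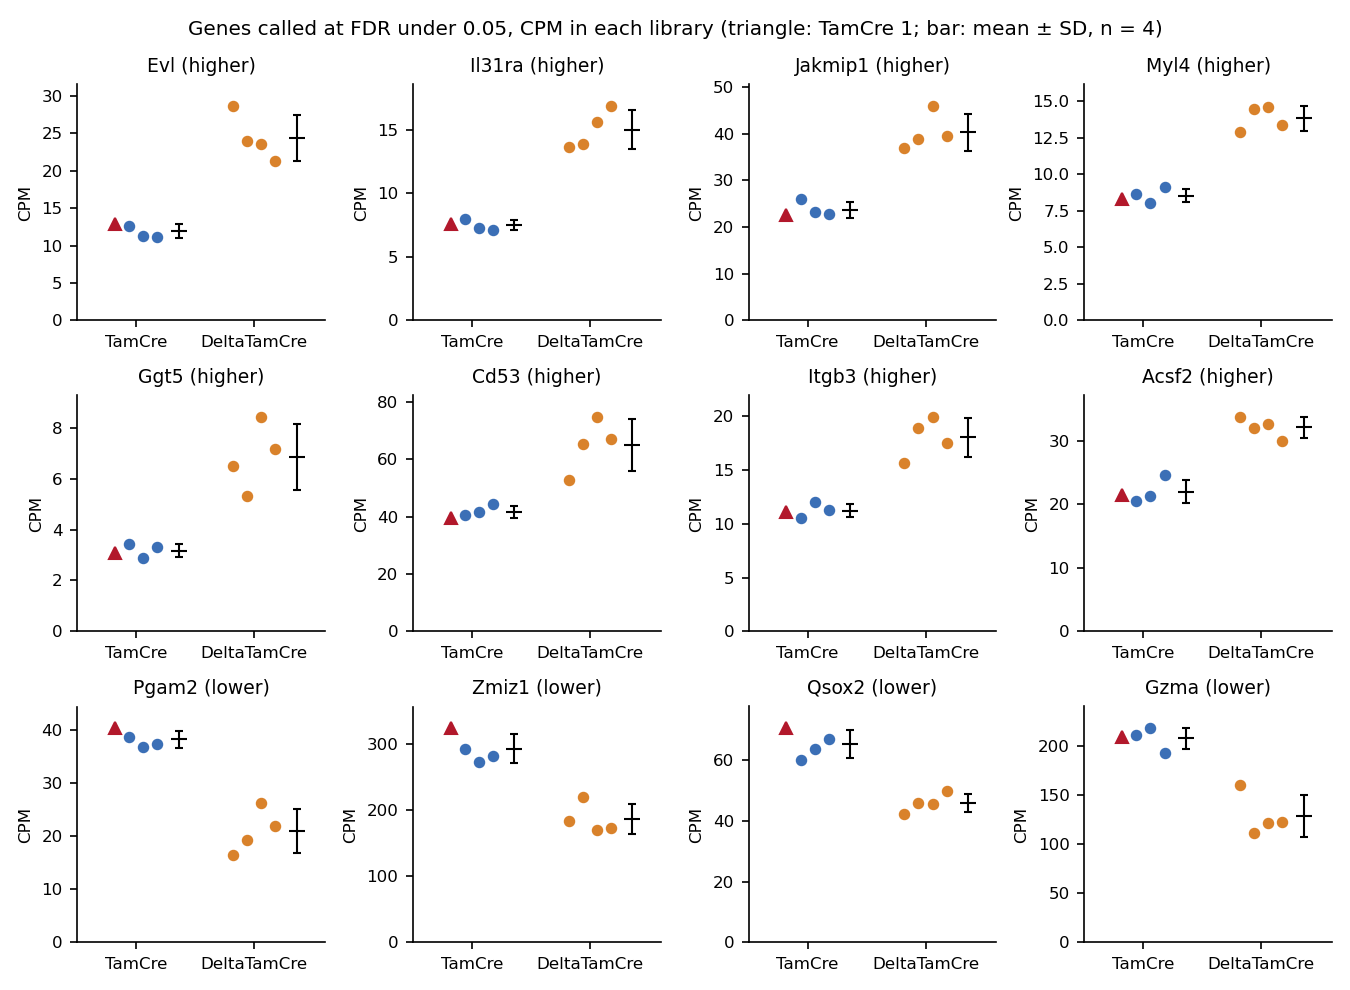
CPM in each library (vertical axes, from 0) for the 12 called genes, TamCre left and DeltaTamCre right in each panel; the triangle is TamCre 1, and the bar beside each group is its mean ± SD over 4 mice. In every panel the groups do not overlap, and TamCre 1 lies with the other TamCre libraries, for Evl at 12.8 CPM against 11.1 to 12.6 CPM.

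The gene with the lowest adjusted p was Evl (chr12:108554681-108688516), which encodes an Ena/VASP-like regulator of actin filaments. It was at 12.8, 12.6, 11.2 and 11.1 CPM in TamCre 1 to 4 and 28.6, 24.0, 23.5 and 21.3 CPM in DeltaTamCre 1 to 4. Evl rose about 2-fold (log2 fold change 1.03 ± 0.11, adjusted p = 0.00872), and every DeltaTamCre library held more than any TamCre library; the call held without TamCre 1 (1.05, adjusted p = 0.0410). Il31ra (chr13:112521931-112580732), a subunit of the interleukin-31 receptor, was at 7.61, 7.99, 7.29 and 7.11 CPM in TamCre 1 to 4 and 13.6, 13.9, 15.6 and 16.9 CPM in DeltaTamCre 1 to 4. It rose by nearly the same amount (1.00 ± 0.11, adjusted p = 0.00872; 1.00 without TamCre 1, adjusted p = 0.0410). Jakmip1 (chr5:37025852-37150614), whose product binds Janus kinases and microtubules, was at 22.5, 26.0, 23.1 and 22.9 CPM in TamCre 1 to 4 and 36.8, 38.8, 45.9 and 39.4 CPM in DeltaTamCre 1 to 4 and rose, with no overlap (0.77 ± 0.090, adjusted p = 0.0123; 0.74 without TamCre 1, adjusted p = 0.0565).

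The other 5 rises were those of Cd53, Ggt5, Itgb3, Myl4 and Acsf2. Cd53 (chr3:106758861-106790149), a leukocyte tetraspanin, was at 39.5, 40.6, 41.7 and 44.4 CPM in TamCre 1 to 4 and 52.7, 65.4, 74.8 and 67.1 CPM in DeltaTamCre 1 to 4. The groups did not overlap, and Cd53 rose (0.65 ± 0.10, adjusted p = 0.0405; 0.61 without TamCre 1, adjusted p = 0.113). Ggt5 (chr10:75589327-75617200), a gamma-glutamyltransferase that acts on leukotriene C4, was at low CPM throughout, 3.07, 3.42, 2.90 and 3.32 CPM in TamCre 1 to 4 and 6.48, 5.33, 8.42 and 7.17 CPM in DeltaTamCre 1 to 4. It had the largest fold change of the 12 (1.11 ± 0.16, adjusted p = 0.0405; 1.08 without TamCre 1, adjusted p = 0.107). Itgb3 (chr11:104608000-104670476), the integrin beta 3 chain, was at 11.1, 10.5, 12.1 and 11.3 CPM in TamCre 1 to 4 and 15.7, 18.9, 19.9 and 17.6 CPM in DeltaTamCre 1 to 4 and rose (0.68 ± 0.10, adjusted p = 0.0405; 0.67 without TamCre 1, adjusted p = 0.108). Itgb3 and Acsf2 lie outside the naming rule and were chosen after their values were seen. Myl4 (chr11:104546017-104587215), a myosin light chain of atrial and embryonic muscle, lies 20784 bases from Itgb3; it was at 8.30, 8.69, 8.07 and 9.15 CPM in TamCre 1 to 4 and 12.9, 14.5, 14.6 and 13.4 CPM in DeltaTamCre 1 to 4 and rose as well (0.70 ± 0.10, adjusted p = 0.0405; 0.67 without TamCre 1, adjusted p = 0.105). Whether counts in these neighbours share transcripts was not tested. Acsf2 (chr11:94557102-94602139), an acyl-CoA synthetase family gene, was at 21.4, 20.5, 21.3 and 24.6 CPM in TamCre 1 to 4 and 33.8, 32.1, 32.7 and 29.9 CPM in DeltaTamCre 1 to 4 and rose without overlap (0.55 ± 0.085, adjusted p = 0.0437; 0.53 without TamCre 1, adjusted p = 0.108).

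Besides Zmiz1, 3 genes fell. Pgam2 (chr11:5801637-5803796), the muscle form of the glycolytic enzyme phosphoglycerate mutase, was at 40.5, 38.7, 36.8 and 37.4 CPM in TamCre 1 to 4 and 16.5, 19.3, 26.2 and 22.0 CPM in DeltaTamCre 1 to 4. It had the largest fall (-0.87 ± 0.13, adjusted p = 0.0405; -0.85 without TamCre 1, adjusted p = 0.105), and the highest DeltaTamCre library lay below the lowest TamCre library. Gzma (chr13:113093824-113100981), the protease granzyme A of cytotoxic lymphocytes, was at 209, 212, 218 and 193 CPM in TamCre 1 to 4 and 160.1, 111, 121 and 122 CPM in DeltaTamCre 1 to 4 and fell (-0.69 ± 0.11, adjusted p = 0.0405; -0.70 without TamCre 1, adjusted p = 0.105). Among NK receptor genes, Klrd1, Klrc1 and Klra1 were at 0 CPM and Ncr1 at no more than 0.0154 CPM in all 8 libraries. The NK receptor gene Klrb1c was at 0.946, 1.02, 0.801 and 0.604 CPM in TamCre 1 to 4 and 0.0183, 1.13, 0 and 1.52 CPM in DeltaTamCre 1 to 4, so its DeltaTamCre libraries lay on both sides of the TamCre range. Il2rb, an IL-2 and IL-15 receptor chain, was at 6.07 CPM in TamCre 1 and at no more than 1.63 CPM in the other 7. The summed CPM of the 23 measured NK and innate lymphoid genes was 433 to 454 in TamCre and 377 to 397 in DeltaTamCre, but without Gzma it was 223 to 244 CPM in TamCre and 229.7 to 275 CPM in DeltaTamCre, with overlap. Of the 15 tested, Gzma fell and 14 did not pass, 3 were higher and 1 (Gzma) lower at an unadjusted p under 0.05, and the median was 0.28 (0.15 without TamCre 1). Nkg7, a cytotoxic granule gene, was at 72.1, 70.2, 62.5 and 73.1 CPM in TamCre 1 to 4 and 70.2, 94.5, 86.4 and 99.0 CPM in DeltaTamCre 1 to 4, with overlap (0.33 ± 0.10, adjusted p = 0.171). The part of other cells in the fall of Gzma was not tested. Qsox2 (chr2:26209124-26237399), a sulfhydryl oxidase that forms disulfide bonds, was at 70.7, 60.0, 63.8 and 66.9 CPM in TamCre 1 to 4 and 42.5, 46.0, 45.7 and 49.9 CPM in DeltaTamCre 1 to 4 and fell (-0.51 ± 0.075, adjusted p = 0.0405; -0.48 without TamCre 1, adjusted p = 0.105). The next 2 by p on the lower side did not pass: Ydjc (-0.53 ± 0.090, adjusted p = 0.0750) and the mitochondrial nucleoside diphosphate kinase gene Nme4 (-0.48 ± 0.087, adjusted p = 0.0885).

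The Notch pathway was examined by a list of 28 tested genes. None rose or fell by edgeR, whereas voom with quality weights called 6 higher and 1 lower (4.96% and 3.99% of all genes) and DESeq2 3 and 1 (1.91% and 1.85%). Their median fold change was 0.010 (0.054 without TamCre 1), and 5 were higher and 1 lower at an unadjusted p under 0.05 (8.04% and 7.96% of all genes). Among receptors, Notch1 was at 2670.0, 2113, 1994 and 2001 CPM in TamCre 1 to 4 and 1811, 2332, 2203 and 2190.4 CPM in DeltaTamCre 1 to 4, and the groups overlapped (-0.040 ± 0.11, adjusted p = 0.889). Its highest value was that of TamCre 1, and without that library the fold change was 0.058. Notch3 ranged over 684 to 898 CPM in TamCre and 591 to 785 CPM in DeltaTamCre (-0.10 ± 0.11, adjusted p = 0.694, and -0.025 without TamCre 1). The lowest p of the list belonged to Heyl, a Notch-induced bHLH repressor, at 10.5, 11.3, 8.41 and 9.28 CPM in TamCre 1 to 4 and 17.2, 23.9, 16.2 and 14.0 CPM in DeltaTamCre 1 to 4 (0.86 ± 0.16, adjusted p = 0.0990), which did not pass by edgeR although the groups did not overlap. The Mastermind-like coactivator genes Maml2 (0.48 ± 0.10, adjusted p = 0.0992) and Maml3 (0.39 ± 0.094, adjusted p = 0.121) likewise had no overlap and did not pass by edgeR. Both other tools called all 3 higher: Heyl (adjusted p = 0.00666 by voom with quality weights and 0.000432 by DESeq2), Maml2 (adjusted p = 0.00771 by voom with quality weights and 0.000888 by DESeq2) and Maml3 (adjusted p = 0.00962 by voom with quality weights and 0.0185 by DESeq2).

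Other Notch1 targets of DN3 cells named here did not pass by edgeR or DESeq2. Voom with quality weights called Dtx1 (0.36, adjusted p = 0.0223), Trib2 (0.43, adjusted p = 0.0238) and Il2ra (0.23, adjusted p = 0.0455) higher. Voom without the weights did not call Dtx1 (adjusted p = 0.307), Trib2 (adjusted p = 0.344) or Il2ra (adjusted p = 0.249). Dtx1, a ubiquitin ligase gene that feeds back on Notch, was at 528, 458, 403 and 422 CPM in TamCre 1 to 4 and 449, 589, 587 and 519 CPM in DeltaTamCre 1 to 4 (0.24 ± 0.11, adjusted p = 0.302; 0.32 without TamCre 1, adjusted p = 0.288). Hes1, the canonical bHLH repressor, was at 156, 129, 114 and 115 CPM in TamCre 1 to 4 and 108, 116, 142 and 120.0 CPM in DeltaTamCre 1 to 4 (-0.083 ± 0.11, adjusted p = 0.760). Its highest library was TamCre 1, and the fold change was 0.014 without it. Il2ra was at 2231, 2354, 2206 and 2366 CPM in TamCre 1 to 4 and 2315, 3064, 2813 and 2574 CPM in DeltaTamCre 1 to 4, with overlap between the groups (0.23 ± 0.087, adjusted p = 0.229). Ptcra (0.079 ± 0.070, adjusted p = 0.617), the Notch feedback inhibitor gene Nrarp (0.23 ± 0.17, adjusted p = 0.543) and the pseudokinase gene Trib2 (0.25 ± 0.13, adjusted p = 0.373; 0.38 without TamCre 1) did not pass either.

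Myc (chr15:61985341-61990361), the transcription factor through which Notch1 drives growth of early thymocytes, was at 553, 604, 549 and 568 CPM in TamCre 1 to 4 and 402, 341, 501 and 453 CPM in DeltaTamCre 1 to 4. All 4 DeltaTamCre libraries lay below all 4 TamCre libraries. The fold change did not pass by edgeR (-0.42 ± 0.11, adjusted p = 0.133; -0.45 without TamCre 1, adjusted p = 0.215), whereas it passed in limma voom with sample quality weights (-0.31, adjusted p = 0.0342) and in DESeq2 (adjusted p = 0.0107). In voom without the weights Myc did not pass (adjusted p = 0.130). Of the 12 tested genes of the MYC network, which holds MAX, its MXD and MNT repressor partners and MLX, none passed (median -0.020). Mxi1, a MAX-binding repressor of MYC, was nearest after Myc (-0.25 ± 0.083, adjusted p = 0.197).

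Genes that MYC is known to drive, and those of the nucleolus, held no called gene, and most of them were lower at an unadjusted p. Of 60 such genes, 0 passed, 39 (65.0%) were lower and 0 higher at an unadjusted p under 0.05, and 21 lay below every TamCre library in all 4 DeltaTamCre libraries, against 7.96% and 5.74% of all genes. Their median fold change was -0.25 (-0.21 without TamCre 1, with 34 lower, against 5.71% of all genes). Voom with quality weights called 25 of them lower (3.99% of all genes) and DESeq2 11 (1.85%). TamCre 1 was the highest of the 8 libraries for 50 of the 60. Summed CPM was 18692, 14857, 16410.4 and 16993 in TamCre 1 to 4 and 13007, 15302, 13664 and 13630.5 in DeltaTamCre 1 to 4, so DeltaTamCre 2 lay above the lowest TamCre library. The ribosome assembly genes Nop16 (-0.35 ± 0.070, adjusted p = 0.0992) and Mrto4 (-0.33 ± 0.068, adjusted p = 0.0992) had the lowest p. Odc1, which makes the first polyamine, was at 265, 192, 226 and 232 CPM in TamCre 1 to 4 and 160.2, 197, 151 and 151 CPM in DeltaTamCre 1 to 4 (-0.47 ± 0.11, adjusted p = 0.121), and the spermidine synthase gene Srm followed (-0.46 ± 0.12, adjusted p = 0.136, and -0.34 without TamCre 1).

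MYC with MAX binds the palindromic E-box CACGTG. Promoter windows were matched in RefSeq (GRCm38.p6) for 52 of the 60 genes by symbol, and the 250 bases before an annotated start held CACGTG (the same on both strands) in 7 (13.46%), against 921 of 9509 tested genes with a window (9.69%). The 150 bases before the start are shown for 3 members with the motif, which is in capitals, to show the E-box in members of this list: Nme1 (a nucleoside diphosphate kinase), Ldha (lactate dehydrogenase A) and Nop2 (an rRNA methyltransferase). Each match describes letters in the window and not a binding site.
Nme1 (chr11:93968026-93968175, minus strand): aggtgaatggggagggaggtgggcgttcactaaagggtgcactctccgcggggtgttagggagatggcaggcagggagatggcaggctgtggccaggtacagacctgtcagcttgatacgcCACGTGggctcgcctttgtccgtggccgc
Ldha (chr7:46845654-46845803, plus strand): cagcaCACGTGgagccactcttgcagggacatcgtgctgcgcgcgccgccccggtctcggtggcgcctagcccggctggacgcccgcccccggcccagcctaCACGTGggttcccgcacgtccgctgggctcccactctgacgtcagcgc
Nop2 (chr6:125131733-125131882, plus strand): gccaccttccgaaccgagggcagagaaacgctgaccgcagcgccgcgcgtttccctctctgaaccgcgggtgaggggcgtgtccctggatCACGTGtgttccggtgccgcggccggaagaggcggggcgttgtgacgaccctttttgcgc
The motif began 29 bases before the start of Nme1, 145 and 48 bases before that of Ldha and 60 bases before that of Nop2. None of the 3 genes passed (Nme1 -0.30 ± 0.084, adjusted p = 0.154; Ldha -0.38 ± 0.11, adjusted p = 0.157; Nop2 -0.26 ± 0.086, adjusted p = 0.190).

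Cytosolic ribosomal protein genes gave the largest share of members lower at unadjusted p among the 35 lists. None of 79 passed, yet 68 (86.1%) were lower and 0 higher at an unadjusted p under 0.05, and 58 (73.4%) lay below every TamCre library in all 4 DeltaTamCre libraries. Of all genes, 7.96% were lower and 8.04% higher at that p, and 5.74% lay below every TamCre library. The median fold change was -0.21, and -0.20 without TamCre 1, where 69 were lower (5.71% of all genes). Voom with quality weights called 37 lower (3.99% of all genes) and DESeq2 39 (1.85%). Summed over 80 measured genes, they made 106810.0, 101763, 98440.0 and 97464 CPM in TamCre 1 to 4 and 87979.9, 85593, 86483 and 87076 CPM in DeltaTamCre 1 to 4, which did not overlap. The large subunit gene Rpl13 (-0.32 ± 0.074, adjusted p = 0.121) and the small subunit gene Rps16 (-0.28 ± 0.067, adjusted p = 0.121) had the lowest p. Ribosomal protein genes have many processed pseudogenes, so how the authors' counting split reads among copies makes single members uncertain. They are also short and abundant (median transcript length 628 bases, against 1429.5 for all genes). Over all genes with a length, the median fold change ran from -0.032 in the shortest of 5 equal bins to 0.084 in the longest, and from 0.18 in the lowest of 5 bins by mean CPM to -0.036 in the highest. The part of length and abundance in these values was not tested.

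Many vertebrate ribosomal protein genes begin transcription inside a run of pyrimidines, the TOP motif. CTTTC, a pyrimidine string searched on the gene's strand only from 10 bases before to 20 bases from the annotated start (RefSeq, GRCm38.p6), was present in 15 of 58 matched ribosomal protein genes (25.86%), in 6 of 52 of the MYC list (11.54%) and in 413 of 9509 genes (4.34%). The 5 members with the motif and the lowest p are shown with Rpl13, whose window does not hold it and which had the lowest p of the list. CTTTC is in capitals.
Rpl28 (chr7:4792955-4792984, plus strand): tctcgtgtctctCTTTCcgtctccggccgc
Rpl7a (chr2:26910797-26910826, plus strand): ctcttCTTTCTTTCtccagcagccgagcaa
Rpl38 (chr11:114668570-114668599, plus strand): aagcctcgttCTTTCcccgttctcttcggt
Rps26 (chr10:128626487-128626516, minus strand): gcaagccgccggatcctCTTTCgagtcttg
Rpl18 (chr7:45718061-45718090, plus strand): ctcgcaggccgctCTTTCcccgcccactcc
Rpl13 (chr8:123102340-123102369, plus strand): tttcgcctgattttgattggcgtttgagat
Fold changes of the 5 genes with the motif lay between -0.25 and -0.23, and that of Rpl13 was -0.32, none of them called.

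Lists of metabolism and protein folding had negative medians too, and no member was called in any of them. Of 50 oxidative phosphorylation genes, 26 (52.0%) were lower and 0 higher at unadjusted p, against 7.96% and 8.04% of all genes. Their median was -0.16 (-0.14 without TamCre 1, with 11 lower, against 5.71% of all genes). The ATP synthase gene Atp5g1 (-0.37 ± 0.088, adjusted p = 0.121) and the cytochrome c oxidase gene Cox5b (-0.27 ± 0.067, adjusted p = 0.122) led them. Of 24 glycolysis genes, 8 were lower (median -0.20, -0.12 without TamCre 1), with the lactate dehydrogenase gene Ldha (-0.38 ± 0.11, adjusted p = 0.157) and the triose phosphate isomerase gene Tpi1 (-0.37 ± 0.11, adjusted p = 0.160) among them. Of 25 ATF4 and amino acid genes, 8 were lower (median -0.23, -0.15 without TamCre 1), the transaminase gene Gpt2 first (-0.54 ± 0.17, adjusted p = 0.172). For heat-shock proteins 6 of 24 were lower and 1 higher (median -0.19), and the median moved to -0.095 without TamCre 1. For the immediate-early list the median of 29 genes was -0.18 with TamCre 1 and 0.35 without it, where 10 were higher at unadjusted p (6.27% of all genes). In the cholesterol list 3 of 33 were lower and 1 higher (median -0.019, -0.049 without TamCre 1).

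**Figure D3:**
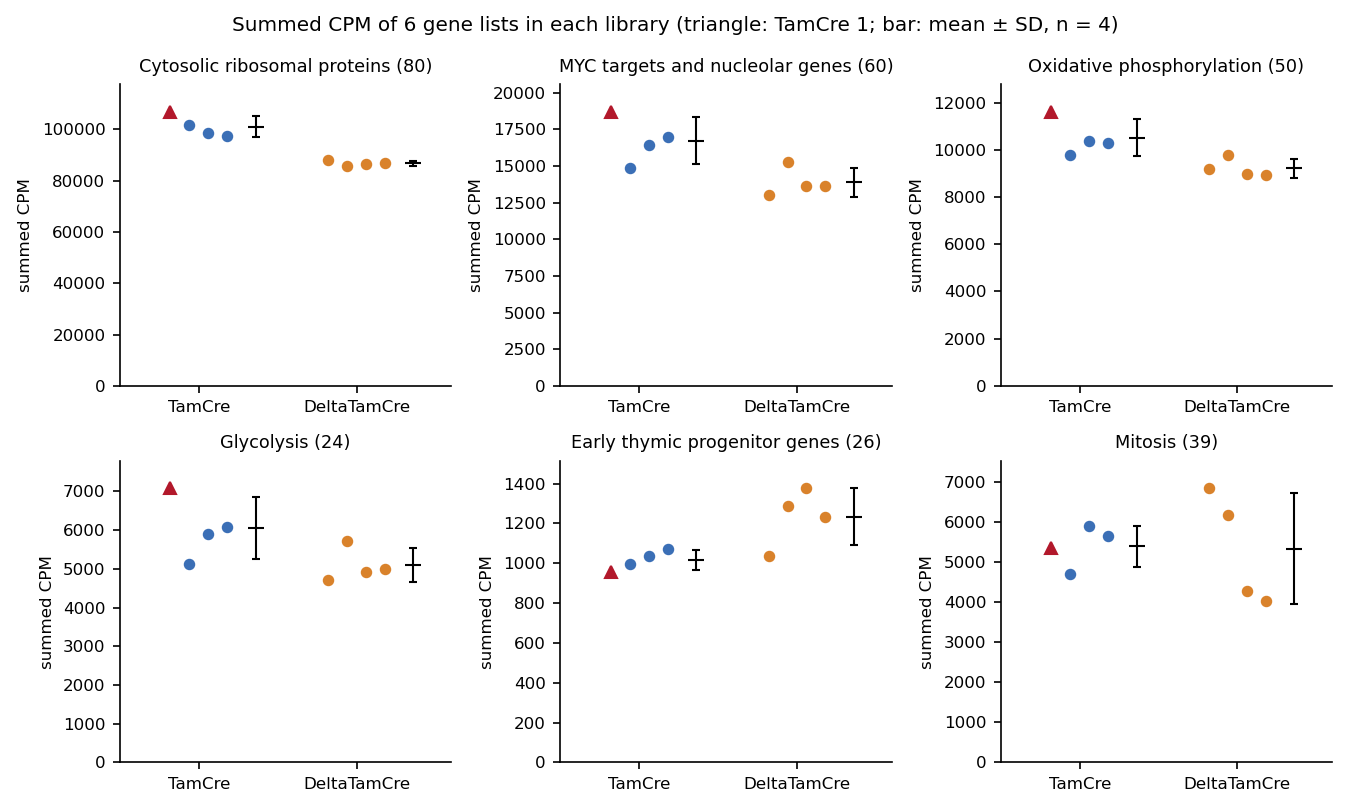
Summed CPM (vertical axes, from 0) of 6 gene lists in each library, with the number of measured genes in brackets; the triangle is TamCre 1 and the bar beside each group is its mean ± SD over 4 mice. The ribosomal protein sums do not overlap (97464 to 106810.0 CPM in TamCre, 85593 to 87979.9 CPM in DeltaTamCre), whereas those of the MYC targets, oxidative phosphorylation, glycolysis, progenitor and mitosis lists do.

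Genes of the cell cycle gave few single-gene differences. Of 38 S phase genes 1 was lower and 0 higher at unadjusted p (median -0.10), the replication helicase gene Gins2 (-0.19 ± 0.074, adjusted p = 0.258). None of 39 mitosis genes was lower or higher at that p (median -0.039), and their summed CPM spread widely within DeltaTamCre, at 6844, 6176, 4293 and 4031 in DeltaTamCre 1 to 4 and 5348, 4703, 5899.6 and 5645 in TamCre 1 to 4. Among cell cycle regulators, Cdk4 was lowest by p (-0.22 ± 0.080, adjusted p = 0.217). The p53 target Trp53inp1 was at 117, 156, 151 and 135 CPM in TamCre 1 to 4 and 184, 205, 220.4 and 195 CPM in DeltaTamCre 1 to 4, without overlap (0.53 ± 0.10, adjusted p = 0.0985). The list of 26 p53 targets had a median of 0.059 (0.00061 without TamCre 1), and the CDK inhibitor gene Cdkn1a did not pass (0.060 ± 0.16, adjusted p = 0.884; -0.063 without TamCre 1). Of 13 BCL2 family genes none passed, and the pro-apoptotic gene Bid (-0.33 ± 0.093, adjusted p = 0.153) had the lowest p. The survival gene Bcl2 was at 148, 120.2, 112 and 125 CPM in TamCre 1 to 4 and 124, 140.3, 132 and 129 CPM in DeltaTamCre 1 to 4, with overlap (0.058 ± 0.088, adjusted p = 0.788, and 0.13 without TamCre 1).

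Among 46 T lineage transcription factors none passed by edgeR, and 8 were higher and 2 lower at unadjusted p (median 0.069, 0.12 without TamCre 1). Voom with quality weights called 6 higher and 2 lower (4.96% and 3.99% of all genes) and DESeq2 2 and 2 (1.91% and 1.85%). Tcf7, which encodes TCF1, was at 2152, 1702, 1832 and 1825 CPM in TamCre 1 to 4 and 1475, 1529, 1497 and 1528 CPM in DeltaTamCre 1 to 4; the groups did not overlap, and the gene did not pass (-0.32 ± 0.079, adjusted p = 0.125; -0.26 without TamCre 1, adjusted p = 0.204). Its partner gene Lef1 was at 403, 246, 249.6 and 256 CPM in TamCre 1 to 4 and 164, 195, 188 and 207 CPM in DeltaTamCre 1 to 4. Its level in TamCre 1 lay far above the other libraries, and the fold change was -0.62 ± 0.16 with that library and -0.42 without it (adjusted p = 0.142 and 0.172). The Ikaros family gene Ikzf2 (0.45 ± 0.10, adjusted p = 0.114) and Runx2 (0.42 ± 0.092, adjusted p = 0.119) were the nearest to a call by edgeR on the higher side. DESeq2 called Tcf7 (adjusted p = 0.00922) and Lef1 (0.00602) lower and Ikzf2 (0.00580) and Runx2 (0.00375) higher. Voom with quality weights called the same genes in the same directions (adjusted p = 0.0121, 0.0213, 0.00480 and 0.0215, in that order). Voom without the weights did not call Tcf7 (adjusted p = 0.137) or Lef1 (adjusted p = 0.150). The commitment factor genes Gata3 (-0.075 ± 0.070, adjusted p = 0.634) and Bcl11b (0.069 ± 0.072, adjusted p = 0.676) did not pass.

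In the list of pre-TCR and recombination genes none of 24 passed by edgeR. Voom with quality weights called 4 of them higher and 2 lower (4.96% and 3.99% of all genes) and DESeq2 3 and 1 (1.91% and 1.85%). Cd6 (0.37 ± 0.063, adjusted p = 0.0750), a T cell scavenger receptor, and Cd5, a surface inhibitor of receptor signalling whose level follows signal strength, came nearest. Cd5 was at 25.7, 18.2, 18.2 and 19.8 CPM in TamCre 1 to 4 and 34.7, 30.0, 27.6 and 32.0 CPM in DeltaTamCre 1 to 4, without overlap (0.60 ± 0.12, adjusted p = 0.0992; 0.72 without TamCre 1, adjusted p = 0.0599). Cd3d, a CD3 chain, was at 297, 389.7, 347 and 327 CPM in TamCre 1 to 4 and 278, 259, 216 and 216 CPM in DeltaTamCre 1 to 4, also without overlap and in the other direction (-0.49 ± 0.11, adjusted p = 0.119). DESeq2 called Cd6 (adjusted p = 7.5e-05) and Cd5 (0.00201) higher and Cd3d (0.00352) lower. Voom with quality weights called the same genes in the same directions (adjusted p = 0.00381, 0.00480 and 0.00381, in that order). Rag1, the recombinase gene, overlapped (0.037 ± 0.11, adjusted p = 0.897; -0.049 without TamCre 1), as did Cd3e (-0.030 ± 0.064, adjusted p = 0.854). Of 28 genes of beta-selection and the later CD4+ CD8+ stage, Cd53 rose and 27 did not pass (median 0.16). The coreceptor transcripts Cd4 and Cd8a, which mark cells past the DN3 stage, varied between mice beside this: Cd4 was at 5.82, 15.4, 4.42 and 4.51 CPM in TamCre 1 to 4 and 33.1, 5.13, 14.3 and 17.4 CPM in DeltaTamCre 1 to 4. Cd8a was at 6.47, 24.2, 7.64 and 7.25 CPM in TamCre 1 to 4 and 41.3, 8.23, 15.1 and 23.4 CPM in DeltaTamCre 1 to 4. DeltaTamCre 1 had the highest Cd4, Cd8a, Cd5 (34.7 CPM) and Evl (28.6 CPM) of the 8 libraries and the lowest Cd53 of its group. DeltaTamCre 2 had Cd4 within the TamCre range, and Cd53, Cd5 and Evl above every TamCre library. The part of cells past the DN3 stage in these values was not tested.

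Early thymic progenitor genes, normally shut off before DN3, had a median of 0.28 over 22 tested members (0.27 without TamCre 1). None passed, 9 (40.9%) were higher and 0 lower at unadjusted p, and 3 lay above every TamCre library in all DeltaTamCre libraries. Of all genes, 8.04% were higher and 7.96% lower at that p, and 4.84% lay above every TamCre library. Many of the progenitor genes were at low CPM, where all genes also had a positive median: 0.18 in the lowest of 5 bins by mean CPM. Kit, the receptor for stem cell factor, was at 43.3, 47.8, 44.7 and 49.2 CPM in TamCre 1 to 4 and 47.8, 65.5, 63.7 and 57.4 CPM in DeltaTamCre 1 to 4, and DeltaTamCre 1 overlapped the TamCre range (0.34 ± 0.10, adjusted p = 0.153). Erg (0.35 ± 0.10, adjusted p = 0.158), an ETS factor gene, had the same sign. Summed CPM of the 26 measured members was 958, 996, 1034 and 1073 in TamCre 1 to 4 and 1037, 1286, 1375 and 1233 in DeltaTamCre 1 to 4. Of 16 genes of the IL-2 and IL-7 receptor and STAT5 axis 3 were higher and none passed (median 0.12), and the kinase gene Pim1 had the lowest p (0.32 ± 0.12, adjusted p = 0.225). Il7r was at 101, 133, 122 and 127 CPM in TamCre 1 to 4 and 119, 108, 117 and 122 CPM in DeltaTamCre 1 to 4, with overlap (-0.053 ± 0.087, adjusted p = 0.810, and -0.14 without TamCre 1).

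**Figure D4:**
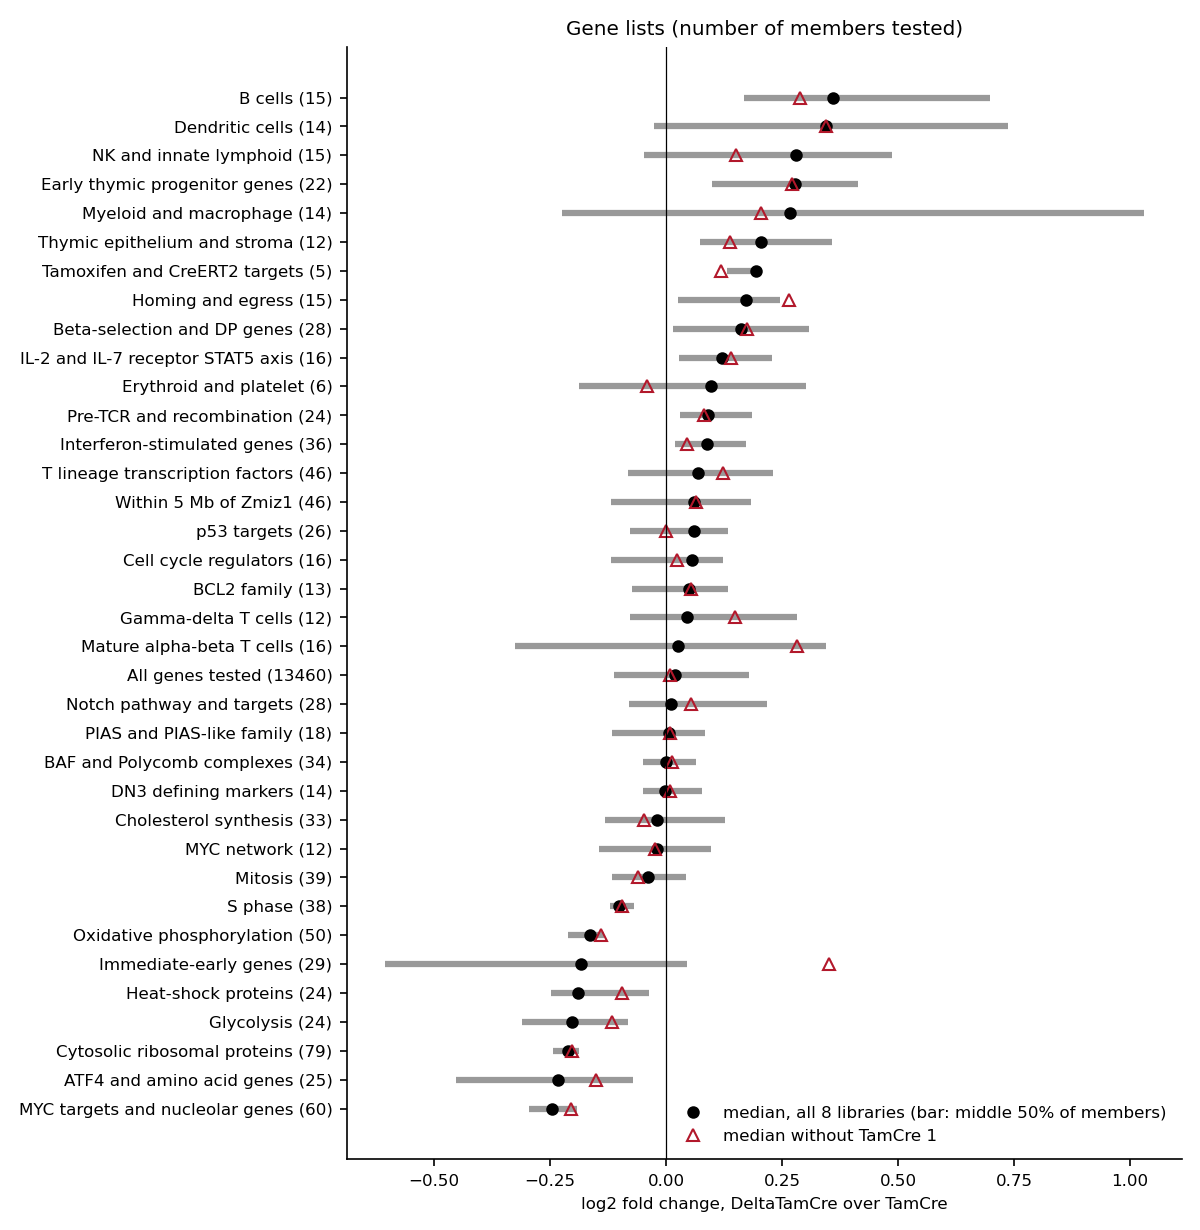
Median log2 fold change, DeltaTamCre over TamCre (horizontal axis), of 35 gene lists and of all genes, with the number tested in brackets: dots are medians over all 8 libraries, grey bars the middle 50% of members and open triangles medians without TamCre 1. The MYC target and ribosomal protein lists lie at -0.25 and -0.21 with all 8 libraries and at -0.21 and -0.20 without TamCre 1, whereas the immediate-early list lies at -0.18 with it and 0.35 without it.

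Many markers of other cell types were at low CPM, and some lay higher in DeltaTamCre without passing the test. The B cell (Pax5), myeloid (Cd14, Csf1r), dendritic (Flt3, Zbtb46), epithelial (Krt5, Foxn1) and erythroid (Hba-a1, Slc4a1) defining genes were all at or below 0.324 CPM in every library, with Zbtb46, Foxn1 and Slc4a1 at 0. Over the whole lists, fewer members were near 0. Under 1 CPM in all 8 libraries were 16 of 26 myeloid, 9 of 20 B cell and 9 of 21 dendritic genes. The same held for 9 of 21 epithelial and stromal genes and 13 of 16 erythroid and platelet genes. In the epithelial and stromal list, Pecam1 was at 106 to 138 CPM, Pdgfrb at 96.7 to 137 CPM and Epcam at 45.7 to 58.6 CPM. In the erythroid and platelet list, Gata1 was at 3.19 to 5.08 CPM. The myeloid integrin gene Itgam was at 0.435, 0.962, 0.549 and 0.815 CPM in TamCre 1 to 4 and 1.83, 1.79, 1.75 and 1.64 CPM in DeltaTamCre 1 to 4 (1.34 ± 0.30, adjusted p = 0.119). Tyrobp, an adaptor gene of myeloid and NK cells, was at 0.315, 0.156, 0.274 and 0.225 CPM in TamCre 1 to 4 and 0.697, 0.910, 0.515 and 0.929 CPM in DeltaTamCre 1 to 4 (1.65 ± 0.40, adjusted p = 0.121), and the MHC class II gene H2-Aa at 0.739, 0.408, 0.307 and 0.604 CPM in TamCre 1 to 4 and 1.45, 1.36, 0.963 and 0.929 CPM in DeltaTamCre 1 to 4 (1.19 ± 0.36, adjusted p = 0.165). All 3 were above every TamCre library in DeltaTamCre; they, Foxp3, Klrb1c, Il2rb and Nkg7 were chosen after their values were seen. Foxp3, of regulatory T cells, was at 6.00 CPM in TamCre 1 and at no more than 0.610 CPM in the other 7. Summed CPM of the 26 myeloid genes was 22.5 to 27.0 in TamCre and 29.0 to 30.8 in DeltaTamCre, of which Lyz2 made up to 11.4. Of 14 tested, 4 were higher at unadjusted p and none passed (median 0.27, 0.21 without TamCre 1), and the sum without Lyz2 was 15.8 to 18.5 CPM in TamCre and 18.8 to 23.2 CPM in DeltaTamCre, without overlap. For B cell genes the sum was 718 to 947 and 518 to 998 CPM, most of it Ly6d (386 to 853 CPM), which early thymocytes also express; without Ly6d the sum was 111 to 122 CPM in TamCre and 123 to 149.9 CPM in DeltaTamCre, without overlap. Their median was 0.36, the highest of the 35 lists (0.29 without TamCre 1), and of 15 tested 3 were higher and 0 lower at unadjusted p, with no call. Summed dendritic cell genes were at 312 to 343 and 304 to 370.1 CPM (median 0.35, 0.34 without TamCre 1; 3 of 14 tested higher and 0 lower at unadjusted p, with no call) and epithelial and stromal genes at 304 to 316 and 299.6 to 357 CPM. Summed gamma-delta T cell genes were at 447 to 617 and 417 to 654 CPM and erythroid and platelet genes at 6.35 to 7.09 and 6.58 to 8.97 CPM. Of the 35 list medians, 3 changed sign without TamCre 1: besides the immediate-early list, those of the erythroid and platelet list (0.10 with it, -0.042 without it) and of the DN3 marker list (-0.0029 and 0.0092). The part of other cells in the results above was not tested. Fewer cells of a type and less RNA per cell cannot be told apart in bulk libraries. Among the 46 other tested genes that start within 5 Mb of Zmiz1 on chromosome 14, none passed, 7 were higher and 4 lower at unadjusted p, and the median was 0.060.

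The acute deletion was set against the other models in a fit of all 20 libraries, from which all values of this paragraph come. Of 13895 genes, 23 differed between the DeltaTamCre and DeltaMxCre effects (0.166%; 0.137% higher in DeltaTamCre and 0.0288% lower) and 97 between the DeltaTamCre and AntiNRR effects (0.698%; 0.439% higher and 0.259% lower). Zmiz1 was at -0.68 ± 0.10 after tamoxifen and -1.42 ± 0.11 in DeltaMxCre (difference 0.73 ± 0.15, adjusted p = 0.0315); time, Cre driver and kit cannot be told apart in this difference. Rag1 was at 0.0046 ± 0.11 and -0.78 ± 0.13 (difference 0.78 ± 0.17, adjusted p = 0.0497), and Cd44 at 0.12 ± 0.35 and -3.07 ± 0.46 (difference 3.19 ± 0.57, adjusted p = 0.0136). Evl was at 0.99 ± 0.20 and 2.21 ± 0.24, a difference that did not pass (difference -1.21 ± 0.31, adjusted p = 0.135). The Notch1 targets Dtx1, Il2ra and Ptcra differed between the DeltaTamCre and AntiNRR effects. Those of Hes1 (difference 0.61 ± 0.24, adjusted p = 0.299), Nrarp (difference 0.64 ± 0.60, adjusted p = 0.739) and Trib2 (difference 0.69 ± 0.31, adjusted p = 0.368) did not pass. Dtx1 was at 0.21 ± 0.21 in DeltaTamCre and -3.94 ± 0.28 in AntiNRR (difference 4.15 ± 0.34, adjusted p = 2.36e-06). For Il2ra the values were 0.20 ± 0.15 and -2.43 ± 0.18 (difference 2.63 ± 0.24, adjusted p = 5.81e-07), and for Ptcra 0.046 ± 0.11 and -1.58 ± 0.13 (difference 1.63 ± 0.17, adjusted p = 3.39e-06). Gzma had opposite signs, at -0.73 ± 0.17 and 0.87 ± 0.20 (difference -1.59 ± 0.26, adjusted p = 0.00220), as did Myl4, at 0.66 ± 0.27 and -1.97 ± 0.38 (difference 2.64 ± 0.46, adjusted p = 0.00320). For Myc the effects were -0.46 ± 0.20 in DeltaTamCre, -0.85 ± 0.23 in DeltaMxCre and -0.98 ± 0.23 in AntiNRR, and neither difference passed (difference 0.39 ± 0.30, adjusted p = 0.946; difference 0.53 ± 0.30, adjusted p = 0.542). The median of the MYC target and nucleolar list was -0.28 in DeltaTamCre, -0.32 in DeltaMxCre and -0.55 in AntiNRR, and that of the ribosomal protein genes -0.25 in DeltaTamCre, -0.32 in DeltaMxCre and -0.25 in AntiNRR; a difference of the list medians was not tested.

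**Figure D5:**
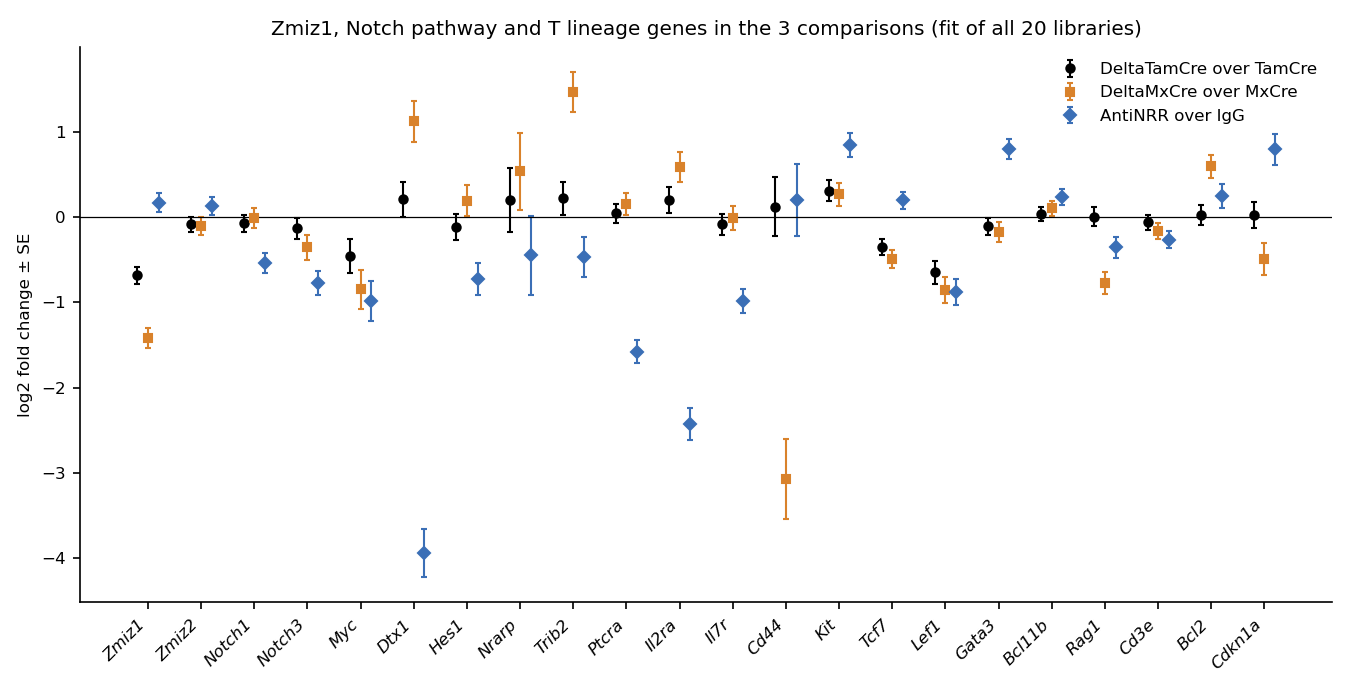
Log2 fold change ± SE (vertical axis) of Zmiz1 and 21 Notch pathway and T lineage genes (horizontal axis) for DeltaTamCre over TamCre (circles), DeltaMxCre over MxCre (squares) and AntiNRR over IgG (diamonds), from the fit of all 20 libraries. Dtx1, Il2ra and Ptcra lie far below 0 for AntiNRR (-3.94 ± 0.28, -2.43 ± 0.18 and -1.58 ± 0.13) and near 0 for DeltaTamCre (0.21 ± 0.21, 0.20 ± 0.15 and 0.046 ± 0.11).

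The authors' deposited table, made with another test on the same libraries, lists 659 genes higher and 855 lower at a q-value under 0.1 among 23284. All 12 genes called by edgeR have a q-value under 0.1 and the same direction in the authors' deposited table. Of the genes listed higher there and tested here, 653 of 654 had a positive fold change here, and of those listed lower 847 of 848 had a negative one; both rest on the same libraries. On the authors' deposited FPKM scale, which is per transcript length, Zmiz1 stood at 31.6 in TamCre and 19.2 in DeltaTamCre (authors' deposited fold change 0.607, q = 0.00246). In the authors' deposited table Myc was lower (FPKM 202 in TamCre and 145 in DeltaTamCre, fold change 0.715, q = 0.00246), as was Lef1 (fold change 0.643, q = 0.00246), and in the same deposited table Hes1 stood at a fold change of 0.796 (q = 0.0459). Tcf7 was also lower in the authors' deposited table (fold change 0.775, q = 0.0548). The Notch1 target Dtx1 was higher in the authors' deposited table (fold change 1.25, q = 0.0600).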

How the data were processed

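Poly(A) RNA of sorted thymocytes was sequenced in 20 mouse libraries, 8 of which form this comparison, and samples were grouped by their GEO titles. Per the submitters' processing notes, the tools were FastQC 0.10.0, TopHat2 2.0.9 with Bowtie2 2.1.0.0, Cufflinks and Cuffdiff 2.1.1, and the genome build was mm10. The notes used here do not state how strand and shared reads were counted, so overlapping, antisense and near-identical genes are uncertain. The count table deposited by the authors holds expected counts from Cuffdiff (98.3% of values whole) for 23284 genes. Another deposited table by the authors holds group-mean FPKM, none under 1, per the file headers. It also gives a fold (the ratio DeltaTamCre over TamCre), a p-value and a q-value, all from the authors per the file headers.

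Expected counts, rounded to whole numbers, went into edgeR 4.0.16 (R 4.3.3): filtering by filterByExpr, TMM scaling, and the quasi-likelihood F test with robust dispersion, group as the only term, Benjamini-Hochberg adjustment and a threshold of 0.05. The script was tested on simulated data. CPM use effective library sizes of the 8 libraries, and SDs are over 4 mice. The precision at 52615332 to 101425251 counts per library was a median SE of 0.114 (log2). Differences between models were tested as interactions in 1 fit of all 20 libraries. Alternatives were RLE and upper-quartile scaling, no filter and a stricter filter, DESeq2 1.42.0, limma 3.58.1 voom with and without quality weights, a replicate block, all 20 libraries, and leaving out each library. No pair of libraries among 190 was a duplicate.

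The comparison and its 35 lists (34 by name, 947 of 969 members measured, and 1 of genes near Zmiz1) were chosen with earlier results of these data known. Named genes were Zmiz1 and 21 fixed genes, and the largest rises and falls also called without TamCre 1. They also held up to 4 called members per list and the 6 lowest adjusted p in each direction. Other list members are shown by rank of p within their list, with exceptions. Picked outside that rank were Cd4, Cd8a, Fos, Hspa1a, the other immediate-early and heat-shock genes drawn, and the markers of other cell types. No set test was run. Promoter sequences are RefSeq, GRCm38.p6.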

Additional observations from a re-analysis of the deposited data

Results flagged for a closer look

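In the 140 groups of 4 values checked, 9 held a library whose gap to the nearest of its group passed Dixon's 95% critical value for 4 samples; chance flags about 1 in 20 groups. TamCre 1 was the library in 4 of the 9. It was high for Trib2 (33.6 CPM), for Lef1 (403 CPM), for the summed T lineage transcription factors (8292 CPM) and for the summed immediate-early genes (2031 CPM). DeltaTamCre 3 was high for the summed interferon-stimulated genes (6168 CPM). TamCre 2 was low for the summed dendritic cell genes (312 CPM) and high for the summed genes within 5 Mb of Zmiz1 (4358 CPM). Summed epithelial and stromal genes were low in TamCre 3 (304 CPM) and in DeltaTamCre 1 (299.6 CPM).

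Interaction tests of edgeR over all 20 libraries set the DeltaTamCre effect apart from another model for 10 named genes. Zmiz1 differed from both, by 0.73 from DeltaMxCre (adjusted p = 0.0315) and by -0.85 from AntiNRR (adjusted p = 0.00282). Against DeltaMxCre the difference was also called for Cd44 (3.19, adjusted p = 0.0136) and Rag1 (0.78, adjusted p = 0.0497). Against AntiNRR it was called for Dtx1 (4.15, adjusted p = 2.36e-06), Il2ra (2.63, adjusted p = 5.81e-07), Ptcra (1.63, adjusted p = 3.39e-06) and Il7r (0.90, adjusted p = 0.0176). The same comparison called Gata3 (-0.90, adjusted p = 0.00242), Gzma (-1.59, adjusted p = 0.00220) and Myl4 (2.64, adjusted p = 0.00320). Kit and model cannot be told apart in any of these differences.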

How the results depend on the processing

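The number of calls depended on the test. edgeR called 8 genes higher and 4 lower; DESeq2 called 257 and 249, voom with quality weights 667 and 537, and the same without TamCre 1 447 and 375. At 2-fold or more, where edgeR called 2 higher and 0 lower, these tests called 25 and 8, 72 and 14, and 56 and 10. Voom without quality weights called 6 higher and 3 lower, and at 2-fold or more 1 higher and 0 lower. In the fit of all 20 libraries 1 gene was higher, 1 lower and 1 at least 2-fold higher. All 12 edgeR calls were also called by DESeq2 and by voom with quality weights. In the fit of all 20 libraries 1 of the 12, Zmiz1, passed. The voom weights were lowest for TamCre 1 (0.386) and DeltaTamCre 2 (0.412). Leaving out 1 library at a time gave 0 to 6 genes higher and 0 to 2 lower, and 0 to 3 higher and 0 lower at 2-fold. Without TamCre 1 these were 2 and 0, without TamCre 2 5 and 0, without TamCre 3 or TamCre 4 0 and 0, and without DeltaTamCre 1 to 4 in turn 6 and 2, 4 and 1, 3 and 1, and 1 and 0. The difference from DeltaMxCre held 11 to 20 genes when 1 tamoxifen library was left out, against 23 (15, 12, 13 and 11 without TamCre 1 to 4 in turn, 13 without DeltaTamCre 2), and that from AntiNRR 62 to 79, against 97 (62 without TamCre 4). Zmiz1 lay between -0.75 and -0.61 and was called in 1 of these 8 fits. With the replicate number as a block no gene was called higher or lower (0 at 2-fold), and Zmiz1 was at -0.66 (adjusted p = 0.434). Same-numbered mice did not deviate together (correlations -0.257, -0.357, -0.023 and -0.014). The labels give no pairing of mice, and these correlations cannot show whether same-numbered mice were handled together. Some genes near 0 changed sign with voom quality weights, the same without TamCre 1, and edgeR without TamCre 1: Zmiz2 (0.023, 0.037 and 0.0023), Notch1 (0.068, 0.083 and 0.058), Hes1 (0.10, 0.12 and 0.014), Rag1 (-0.054, -0.10 and -0.049) and Cdkn1a (-0.11, -0.15 and -0.063). Notch3 did so with voom quality weights (0.0043 and 0.0070). Leave-one-out ranges were -0.10 to 0.0023 for Zmiz2, -0.098 to 0.058 for Notch1 (0.026 without DeltaTamCre 1), -0.17 to 0.014 for Hes1, -0.055 to 0.091 for Rag1 and -0.069 to 0.16 for Cdkn1a. The cause of these changes was not tested.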

Other observations

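The lists of homing and egress, mature alpha-beta T cell, interferon-stimulated, chromatin complex and tamoxifen target genes held no called gene. Of 15 tested homing and egress genes, 4 were higher and 0 lower at an unadjusted p under 0.05 (median log2 fold change 0.17, 0.26 without TamCre 1), and Itgb2 had the lowest p, at 45.5, 31.7, 30.1 and 30.7 CPM in TamCre 1 to 4 and 43.1, 45.3, 50.2 and 54.4 CPM in DeltaTamCre 1 to 4 (0.48 ± 0.13, adjusted p = 0.152 by edgeR). Of 16 genes of mature alpha-beta T cells, 6 were higher and 1 lower (median 0.026, 0.28 without TamCre 1), and Cd6 had the lowest p (0.37 ± 0.063, adjusted p = 0.0750 by edgeR). Of 36 interferon-stimulated genes, 3 were higher and 0 lower (median 0.088, 0.046 without TamCre 1), with Irf1 first by p (0.24 ± 0.073, adjusted p = 0.171 by edgeR). For the 34 genes of the BAF remodelling and Polycomb complexes the median was 0.00025, and for the 5 tested tamoxifen and CreERT2 targets 0.19 (by edgeR 0 of either list higher or lower at that p). Of all genes tested, 8.04% were higher and 7.96% lower.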
